A study of Mus musculus with 3 samples.

Results

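The 9 genes described here serve hemoglobin, heme and the red cell membrane: the alpha-globins Hba-a1 and Hba-a2, the beta-globins Hbb-bs and Hbb-bt, the heme enzymes Alas2 and Fech, the mitochondrial iron carrier Slc25a37, the membrane anion exchanger Slc4a1 (band 3) and Bpgm, which makes the regulator of oxygen binding. They were chosen by name, as 9 of the 32285 features counted, and all 9 were detected in every library. PB of wild-type Balb/C mice was profiled as 3 scRNA-seq libraries, each of a single condition: naive mice, and mice engrafted with BBC2 SCLL cells at D11 (intermediate stage) and D14 (late stage). The BBC2 cells carry the fusion kinase BCR-FGFR1 and grow in mice as a leukemia of pro-B-like cells; they are 1 line, so the leukemic groups model 1 leukemia. For all groups red blood cells were lysed and dead cells were removed before the libraries were made, the engrafted mice were young adult females, and how many mice each library holds was not given in the sources used here. With 1 library per condition no difference between conditions can be told apart from a difference between libraries, so no test was run, and every interval is a 95% interval for counting error only.

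Hemoglobin is a tetramer of alpha and beta chains, each of which holds 1 heme. Heme is made partly in mitochondria: Alas2 catalyses the first, rate-limiting step in erythroid cells, Slc25a37 (mitoferrin) brings in the iron, and Fech inserts it into the finished ring. Young red cells, the reticulocytes, have lost their nucleus but keep globin messages for a short while, and the messages run down as the cell ages. Slc4a1 exchanges chloride for bicarbonate and anchors the membrane skeleton.

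The libraries held 5386 naive, 8536 D11 and 9337 D14 barcodes with 30362408, 57640396 and 65861863 UMIs (unique molecular identifiers, each counted as 1 RNA molecule). Their labelled cell type is immune cells, yet the 4 globin genes took 11.2%, 55.9% and 22.5% of all UMIs. Barcodes fell into separate groups by the share of their UMIs that came from hemoglobin. Those above 50% numbered 881 (16.4%, exact Clopper-Pearson interval 15.4 to 17.4%), 4540 (53.2%, 52.1 to 54.2%) and 4058 (43.5%, 42.5 to 44.5%), and they held 96.6%, 98.4% and 96.5% of the hemoglobin UMIs. Red cell lysis before the libraries can set this share. Few barcodes lay near the threshold: 11, 39 and 48 held 40 to 50% hemoglobin and 10, 37 and 76 held 50 to 60%. All 8 erythroid markers that were counted, among them Alas2, Slc4a1, Epb42, Rhag, Ermap and Hemgn, were present in the barcodes above 50%. They summed to 28814, 27686 and 22327 non-hemoglobin CPM (counts-per-million of UMIs that are not hemoglobin) against 17.0, 70.3 and 33.6 in the other barcodes, where 7, 8 and 8 of them were also detected. Most of each sum above 50% was Alas2, at 24561, 21566 and 19708, and Alas2 and Slc4a1 are members themselves. Rhag had 3 and Ermap 5 naive UMIs there. Ahsp is not among the features. The barcodes above 50% had medians of 3054, 7083 and 3961.5 UMIs but only 95, 151 and 167 genes. At least 2 markers of 1 leukocyte class were found in 16, 187 and 486 of them (1.82%, 4.12% and 12.0%), no doublet caller was run, and 12, 14 and 18 barcode sequences were shared by naive and D11, by naive and D14 and by D11 and D14.

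**Figure D1:**
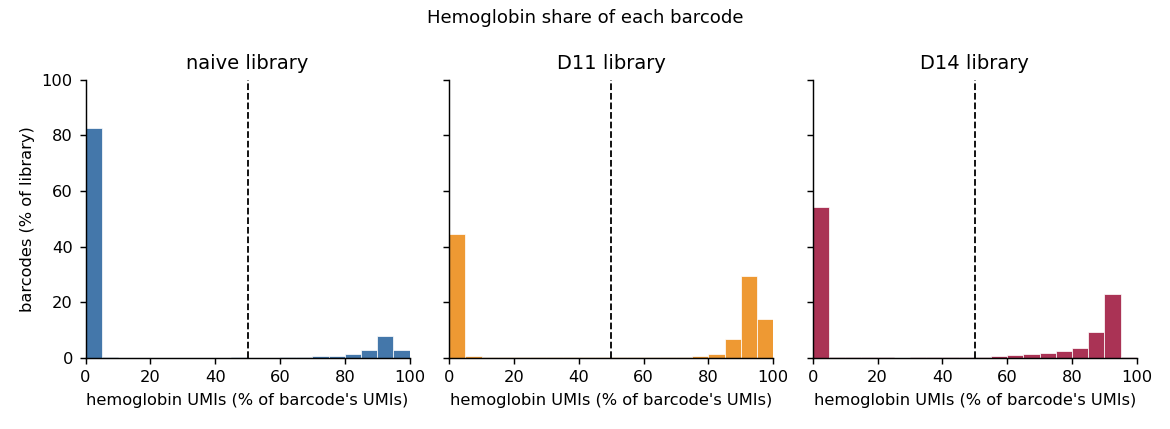
Share of each barcode's UMIs that came from the 4 globin genes (x axis, percent, bins of 5) against the percent of the library's barcodes (y axis), for the naive, D11 and D14 libraries; the dashed line is the 50% threshold. Barcodes lay at either end, and 16.4%, 53.2% and 43.5% of them lay above the line.

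The genes sit in a pair of globin clusters and at single loci. In GENCODE vM21 on GRCm38, Hba-a1 (ENSMUSG00000069919) spans chr11:32283511-32284465 and Hba-a2 (ENSMUSG00000069917) chr11:32296489-32297298, both on the plus strand. Hbb-bt (ENSMUSG00000073940) spans chr7:103812524-103813996 and Hbb-bs (ENSMUSG00000052305) chr7:103826534-103828096, both on the minus strand. Alas2 (ENSMUSG00000025270) spans chrX:150547375-150570638 on the plus strand, Slc4a1 (ENSMUSG00000006574) chr11:102348824-102366203 on the minus strand, Slc25a37 (ENSMUSG00000034248) chr14:69241848-69285112 on the minus strand and Bpgm (ENSMUSG00000038871) chr6:34476207-34505613 on the plus strand.

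The promoters of the 4 globins and of Alas2, the rate-limiting heme enzyme, are shown because the ratios below compare their products. Each stretch is the 120 bases before the RefSeq start (GRCm38.p6), read in the direction of the gene, with every match to the GATA motif AGATAA, its variant TGATAA, the CACCC motif, the CCAAT box or the box written TATAAA on either strand in capitals (a match on the other strand is shown as its reverse complement). The RefSeq starts differ from the GENCODE ones. The Hba-a1 and Hbb-bs stretches thus lie within the GENCODE spans given above, and those of Hba-a2, Hbb-bt and Alas2 overlap theirs in part.
Hba-a1, chr11:32283552-32283671, plus strand: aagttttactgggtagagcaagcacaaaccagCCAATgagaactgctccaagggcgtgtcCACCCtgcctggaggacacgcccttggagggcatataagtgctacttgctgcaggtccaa
Hba-a2, chr11:32296372-32296491, plus strand: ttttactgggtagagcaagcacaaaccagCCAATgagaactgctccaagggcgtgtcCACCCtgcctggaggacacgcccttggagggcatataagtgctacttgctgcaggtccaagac
Hbb-bs, chr7:103827929-103828048, minus strand: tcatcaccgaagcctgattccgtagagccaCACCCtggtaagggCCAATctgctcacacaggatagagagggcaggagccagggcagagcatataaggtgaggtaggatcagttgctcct
Hbb-bt, chr7:103813924-103814043, minus strand: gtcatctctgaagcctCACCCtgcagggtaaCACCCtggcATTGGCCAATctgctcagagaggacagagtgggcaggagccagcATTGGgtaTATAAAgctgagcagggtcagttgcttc
Alas2, chrX:150547297-150547416, plus strand: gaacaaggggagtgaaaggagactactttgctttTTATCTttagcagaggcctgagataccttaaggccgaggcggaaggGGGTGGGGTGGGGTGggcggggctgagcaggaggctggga

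The Hba-a1 and Hba-a2 stretches were the same apart from their ends, with 117 identical bases in an alignment of 123 columns, each with 1 CCAAT and 1 CACCC. Hbb-bs and Hbb-bt shared 91 of 122 columns (74.6%). Hbb-bs held 1 CACCC and 1 CCAAT, and Hbb-bt held 2 CACCC, 3 CCAAT and 1 TATAAA. Alas2 held 3 adjacent CACCC matches and 1 AGATAA, all on the other strand, and no CCAAT. In windows of 300 bases over 27025 mouse promoters, longer than the stretches shown, CACCC was found in 56.7%, CCAAT in 37.9%, TATAAA in 14.2%, AGATAA in 11.4% and TGATAA in 9.26%. A CACCC or CCAAT match in such a window thus sets a gene little apart. In their own windows of 300 bases Hba-a1 and Hba-a2 each held 1 TGATAA, Hbb-bs 1 AGATAA and Alas2 1 TATAAA, none of them within the stretches shown. RefSeq promoters were matched for 6 of the 9 members; Slc4a1, Slc25a37 and Fech had no entry.

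Reads from the globin copies cannot all be told apart. Of all stretches of 90 bases in the last 300 bases of the Hba-a1 transcript, 57.3% also occurred exactly in that of Hba-a2, and 49.8% the other way round. Between Hbb-bs and Hbb-bt these shares were 24.6% and 24.2%. The split within each pair is therefore uncertain. The beta split carries a further limit: Balb/C mice carry another haplotype of the beta-globin locus than the C57BL/6 reference, which names its adult genes Hbb-bs and Hbb-bt.

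Hbb-bt differed most between the libraries among the globins. In the barcodes above 50%, Hbb-bs held 50.7%, 49.0% and 52.8% of the hemoglobin UMIs in the naive, D11 and D14 libraries. Hba-a1 held 22.8%, 22.1% and 22.2%. Hba-a2 held 18.8%, 18.8% and 17.7%. Hbb-bt held 7.69%, 10.1% and 7.33%. The D11 library thus stood apart in its Hbb-bt share, at 1.32 times naive (1.31 to 1.32), while the other 3 globins were at 0.939 to 1.04 times naive at D11 and D14. Counts are molecules read from 3′ ends and were not scaled by gene length, so levels were compared between libraries and not between genes.

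As a ratio of counted UMIs, alpha to beta was below 1 in every library and lowest at D14. Summed over the barcodes above 50%, the alpha to beta ratio was 0.711 (0.710 to 0.713) in naive, 0.691 (0.6905 to 0.6915) at D11 and 0.662 (0.662 to 0.663) at D14. These intervals do not overlap, but the differences were small beside the spread between barcodes: the middle 90% of barcodes spanned ratios of 0.560 to 0.989, 0.572 to 0.823 and 0.527 to 0.970, around medians of 0.712, 0.692 and 0.668. Pooled over the barcodes at or below 50% the order was the same, at 0.686, 0.675 and 0.644, but it did not hold in every part of them. At 10 to 50% hemoglobin the ratios were 0.682, 0.689 and 0.643. At 1 to 10% they were 0.939, 0.808 and 0.697, in the same order. At or below 1% they were 0.506, 0.452 and 0.552, with D14 highest. In the barcodes above 50% the order held in each of 4 bins cut by number of genes within each library. There the naive ratios were 0.704 to 0.722, the D11 ratios 0.676 to 0.703 and the D14 ratios 0.654 to 0.672. With each barcode thinned to 1000 UMIs it held in the first 3 bins, and in the bin with most genes D14 (0.710) was slightly above D11 (0.707). These bins span unlike gene numbers in the 3 libraries. In bands of equal gene number at 1000 UMIs the order held up to 60 genes: 0.705, 0.679 and 0.651 at 40 or fewer, and 0.729, 0.700 and 0.652 at 41 to 60. It failed above that, at 0.709, 0.711 and 0.664 for 61 to 80 genes and 0.750, 0.682 and 0.718 for 81 or more.

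Within the pairs, more UMIs were counted for Hba-a1 than for Hba-a2 and for Hbb-bs than for Hbb-bt in every library. The limits given above on both splits apply, so this does not rank the genes. The Hba-a1 to Hba-a2 ratio was 1.21 (1.21 to 1.21) in naive, 1.18 (1.18 to 1.18) at D11 and 1.26 (1.25 to 1.26) at D14. The Hbb-bs to Hbb-bt ratio was 6.60 (6.57 to 6.62), 4.83 (4.83 to 4.84) and 7.21 (7.19 to 7.22). D11 was lowest for both ratios, and was lowest for the beta pair in each bin by genes as well: 6.81 to 4.29 from the bin with fewest genes to that with most, against 11.8 to 5.73 in naive and 11.5 to 6.08 at D14. This slope within a library was not the same after thinning. At 1000 UMIs per barcode the naive bins ran from 7.71 to 7.50 and the D14 bins from 7.31 up to 10.6, whereas the D11 bins still ran down from 6.32 to 4.44.

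**Figure D2:**
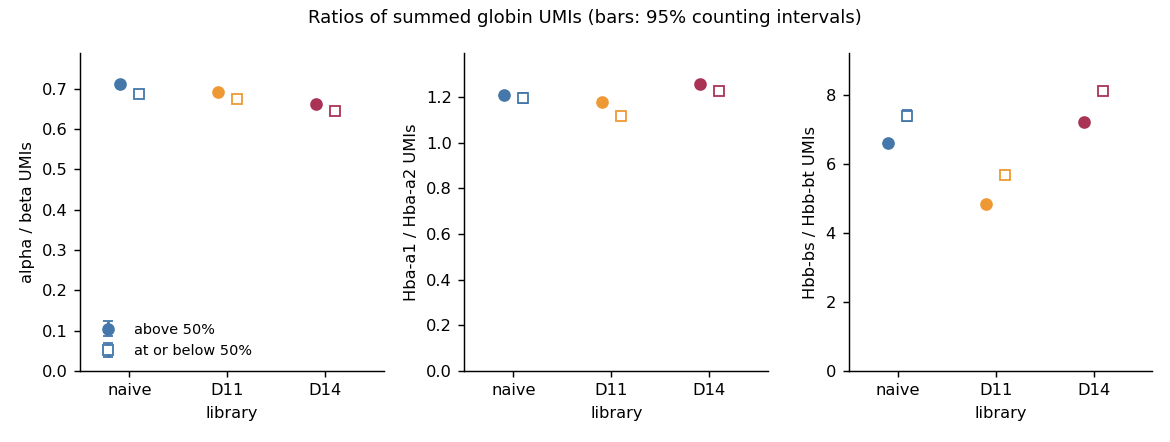
Ratios of summed UMIs (y axes, from 0) of alpha to beta globin, Hba-a1 to Hba-a2 and Hbb-bs to Hbb-bt in each library (x axis); filled circles are barcodes above 50% hemoglobin, open squares the others, and bars 95% counting intervals. D11 had the lowest Hbb-bs to Hbb-bt ratio, 4.83 against 6.60 in naive and 7.21 at D14, and the alpha to beta ratio went from 0.711 to 0.662.

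The other 5 members, called maturation genes here, were measured against hemoglobin in the same barcodes. Together they gave 4.49 UMIs per 1000 hemoglobin UMIs in naive (4.42 to 4.56), 4.24 at D11 (4.21 to 4.26) and 4.56 at D14 (4.52 to 4.59). The naive and D14 sums could not be separated, and D11 was lowest. As a level per 1000 hemoglobin UMIs, none of these 5 genes passed a 2-fold difference from naive at D11 or at D14. The globins make up the denominator of this scale and are not counted. For D11 over naive, 11.4% of 5927 genes tested were at least 2-fold higher on this scale and 12.2% at least 2-fold lower. For D14 over naive, 49.7% of 6301 genes were higher and 1.86% lower, with a median over all genes of 0.99 (log2).

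Alas2, the first enzyme of heme synthesis, gave 7391, 61092 and 34270 UMIs, or 2.26 (2.20 to 2.31), 1.93 (1.91 to 1.94) and 2.40 (2.38 to 2.43) per 1000 hemoglobin UMIs in the naive, D11 and D14 libraries, so D11 was lowest and D14 highest. The D11 level was 0.855 times the naive one (0.834 to 0.875) and the D14 level 1.07 times (1.04 to 1.09). In barcodes of 200 or more genes with at most 10% mitochondrial UMIs the naive and D11 levels were nearly level, at 1.92 and 1.89, with D14 at 2.34. A UMI of Alas2 was found in 94.0%, 98.8% and 94.2% of the barcodes above 50%, and in 85.4%, 81.1% and 86.4% after thinning to 1000 UMIs, which left out 139, 1 and 379 shallower barcodes.

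Fech, the last enzyme of heme synthesis, hardly differed between the libraries per hemoglobin UMI. It gave 1610, 15571 and 6778 UMIs, or 0.491 (0.468 to 0.516), 0.491 (0.484 to 0.499) and 0.475 (0.464 to 0.487) per 1000 hemoglobin UMIs. The D11 to naive ratio was 0.9998 (0.950 to 1.05) and the D14 to naive ratio 0.967 (0.916 to 1.02), both with intervals that include 1. Slc25a37 gave 2125, 20008 and 10395 UMIs, or 0.648 (0.621 to 0.677), 0.631 (0.622 to 0.640) and 0.729 (0.715 to 0.743). Its D11 level did not differ from naive beyond counting error (0.973 times, 0.931 to 1.02), and its D14 level was 1.12 times the naive one (1.07 to 1.18). With each barcode thinned to 1000 UMIs the levels were 0.778, 0.649 and 0.778, so D14 did not stand above naive there and D11 was lowest, by 0.26 on the log2 scale. Thinning also gives every barcode the same weight and left out 139, 1 and 379 shallower barcodes, and these changes were not told apart.

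Bpgm, the enzyme that makes 2,3-bisphosphoglycerate, gave 3007, 28509 and 11866 UMIs, or 0.918 (0.885 to 0.951), 0.899 (0.889 to 0.910) and 0.832 (0.817 to 0.847) per 1000 hemoglobin UMIs. D14 was lowest, at 0.907 times naive (0.871 to 0.944), and D11 could not be separated from naive (0.980 times, 0.944 to 1.02). This order turned with the barcodes kept: in those of 200 or more genes with at most 10% mitochondrial UMIs the levels were 1.24, 1.05 and 1.17, so D11 was lowest, at -0.23 (log2) against naive. At 1000 UMIs D11 was highest, at 0.850 beside 0.811 and 0.736.

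Slc4a1 differed most between the libraries. It gave 580, 9122 and 1722 UMIs, or 0.177 (0.163 to 0.192) in naive, 0.288 (0.282 to 0.294) at D11 and 0.121 (0.115 to 0.127) at D14 per 1000 hemoglobin UMIs. The D11 level was 1.63 times naive (1.49 to 1.77) and the D14 level 0.682 times (0.620 to 0.751), so the leukemic libraries lay on opposite sides of naive. Both ratios share the naive library. Set directly beside each other, D14 was 0.420 times D11 (0.398 to 0.442), which made Slc4a1 the 1 maturation gene past 2-fold in that comparison. Of 8021 genes, 2.53% were at least 2-fold lower there and 53.5% at least 2-fold higher. Per non-hemoglobin UMI Slc4a1 was the 1 of the 9 members past 2-fold, at 0.308 times (0.292 to 0.324), where 5.66% of genes were lower and 34.1% higher. Slc4a1 was also the most unevenly spread member by this measure: the 5% of barcodes with most of it held 45.3%, 31.4% and 50.1% of its UMIs, against 14.7%, 12.5% and 12.8% for Alas2. It also had the fewest UMIs of the 9 members, with medians of 0, 1 and 0 per barcode against 7, 12 and 8 for Alas2. Such a share goes up when counts are few, and how far low counts set it was not tested. After thinning to 1000 UMIs it was found in 11.2% (9.01 to 13.7%), 18.3% (17.2 to 19.4%) and 8.15% (7.29 to 9.09%) of the barcodes, and as deposited in 28.3%, 53.8% and 22.6%. In barcodes of 200 or more genes with at most 10% mitochondrial UMIs its levels were 0.389, 0.488 and 0.226 per 1000 hemoglobin UMIs. The order held there. The log2 ratio to naive went from 0.70 to 0.32 at D11 and from -0.55 to -0.79 at D14.

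Part of these differences turned on the scale. The barcodes above 50% carried 91.8, 89.4 and 122 non-hemoglobin UMIs per 1000 hemoglobin UMIs, so D14 had relatively more other RNA. In non-hemoglobin CPM, all 9 members were below naive at D14, by 0.24 to 0.96 on the log2 scale, while the median over all genes was 0.58 above it; 34.1% of genes were at least 2-fold higher on this scale, 4.35% lower, and 0 of 9 members passed. Slc4a1, at -0.96, lay just inside 2-fold and was past it under 2 other scalings. It was at -1.33 with TMM factors on all UMIs, hemoglobin included (a scaling that sets most genes level between libraries). Per non-hemoglobin UMI without Gm42418 and AY036118 it was at -1.07. At D11 the members ran from -0.19 for Alas2 to 0.74 for Slc4a1, with a median of 0.01 beside 0.04 over all genes, of which 12.1% were at least 2-fold higher and 10.8% lower. Alas2 and Slc25a37 changed side with the scale at D14: Alas2 was 1.07 times naive per hemoglobin UMI and 0.802 times per non-hemoglobin UMI, and Slc25a37 1.12 and 0.847 times. Slc4a1 kept its side, with 1.67 times naive at D11 and 0.514 times at D14. A single transcript, Gm42418, which overlaps ribosomal RNA sequence, made up 34.3%, 25.1% and 29.9% of the non-hemoglobin UMIs. B-lineage markers summed to 163, 443 and 1259 and neutrophil markers to 1057, 1505 and 1927 non-hemoglobin CPM in these barcodes, and T/NK markers to 193, 91.1 and 27.6. Without barcodes holding 2 markers of a leukocyte class, the Slc4a1 log2 ratios per hemoglobin UMI were 0.70 at D11 and -0.59 at D14, beside 0.70 and -0.55 with them.

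Within each library Slc4a1 and Bpgm were higher in the barcodes with most genes than in those with fewest, a division made after the data were seen. From the bin of barcodes with fewest genes to that with most, Slc4a1 went from 0.049 to 0.277 per 1000 hemoglobin UMIs in naive, from 0.040 to 0.523 at D11 and from 0.020 to 0.236 at D14. Bpgm went from 0.371 to 1.20, from 0.474 to 1.06 and from 0.327 to 1.19. Alas2 moved little the other way, from 2.53 to 2.07, from 1.99 to 1.90 and from 2.42 to 2.35. Fech and Slc25a37 differed by library: in naive Fech was at 0.514 in the first and the last bin and Slc25a37 went from 0.700 to 0.636, whereas at D11 they went from 0.426 to 0.530 and from 0.499 to 0.688, and at D14 from 0.379 to 0.533 and from 0.516 to 0.851. The gene-rich barcodes were also the deeper ones, with median UMIs of 1018, 2252, 4237 and 8227.5 over the naive bins. At an equal 1000 UMIs per barcode the steep order of Slc4a1 remained, at 0.033 to 0.434, 0.031 to 0.675 and 0.044 to 0.181. At equal depth a barcode with more genes holds fewer hemoglobin UMIs, so any other gene goes up on this scale: all non-hemoglobin UMIs per hemoglobin UMI went up 4.49-fold from the first bin to the last in naive, 3.85-fold at D11 and 3.403-fold at D14. Slc4a1 went up by more than that, 13.2-fold, 21.5-fold and 4.10-fold, from only 6, 35 and 38 UMIs in the first bins. Per non-hemoglobin UMI it was 2.95, 5.57 and 1.21 times as high in the last bin as in the first, given without intervals. Slc4a1 is itself 1 of the genes counted to cut the bins. At this depth 8.15 to 18.3% of barcodes held it, against 81.1 to 86.4% for Alas2. A gene found in few barcodes is moved toward the last bin by the cut itself. How far this sets the Slc4a1 rise was not tested. The D14 value of Slc4a1 per non-hemoglobin UMI rests on 38 and 129 UMIs. Over the D14 bins Slc4a1 ran at 586, 838, 1173 and then 706 non-hemoglobin CPM, so no rise beyond the other RNA is read there. The other 4 genes went up by less than all other RNA. Alas2 went from 1.90 to 3.26, from 1.82 to 2.17 and from 2.24 to 3.20, and Slc25a37 from 0.382 to 1.39, from 0.396 to 0.938 and from 0.466 to 1.37. Fech went from 0.382 to 0.791, from 0.354 to 0.620 and from 0.392 to 0.591. Bpgm went from 0.579 to 1.04 and from 0.504 to 1.16 in naive and D11, and in D14 from 0.637 to 0.873 in the third bin with 0.711 in the last. Per non-hemoglobin UMI these 4 genes were lower in the last bin than in the first, at 0.309 to 0.863 times. In these bins at equal depth the D11 interval for Slc4a1 lay above the naive one in the gene-richest bin (0.624 to 0.730 against 0.333 to 0.557) and overlapped it in the other 3. As deposited it lay above naive in the last 3 bins, at 0.102 to 0.118 against 0.029 to 0.068, 0.245 to 0.266 against 0.101 to 0.147 and 0.510 to 0.537 against 0.251 to 0.304. The bins were cut within each library, so gene numbers differ: at 1000 UMIs the last held 56 to 343 in naive and 77 to 415 at D14. In bands of equal gene number at 1000 UMIs the D11 interval lay above naive up to 80 genes. It was 0.0575 to 0.0805 against 0.0135 to 0.0561 at 40 or fewer, 0.292 to 0.350 against 0.156 to 0.268 at 41 to 60 and 0.712 to 0.889 against 0.284 to 0.601 at 61 to 80. At 81 or more the intervals overlapped (0.612 to 0.881 against 0.503 to 1.27).

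**Figure D3:**
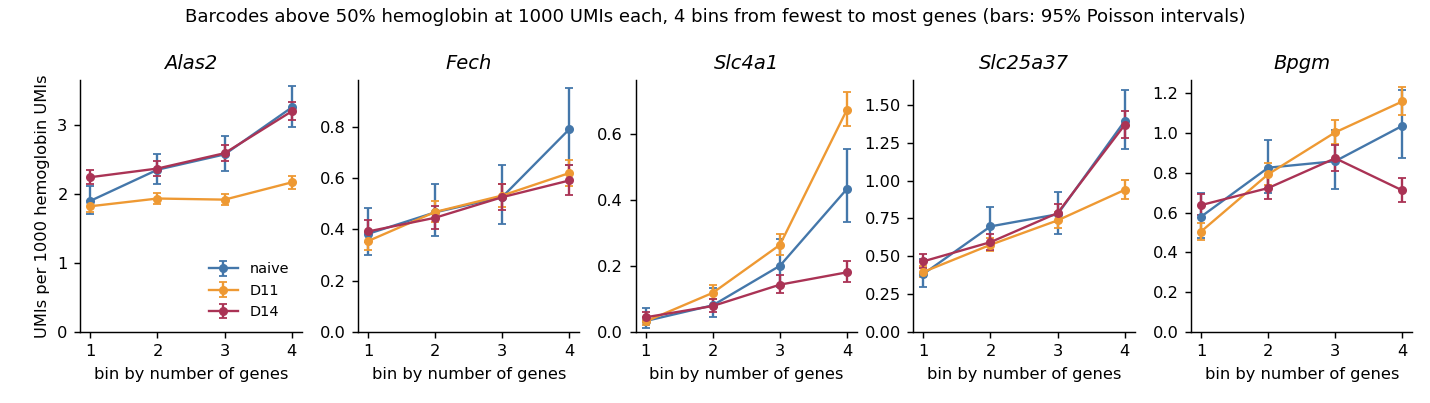
UMIs per 1000 hemoglobin UMIs (y axes, from 0) of the 5 maturation genes in bins of the barcodes above 50% hemoglobin, cut within each library from fewest (1) to most genes (4), after thinning each barcode to 1000 UMIs; colours are libraries and bars 95% Poisson intervals. Slc4a1 reached 0.675 in the gene-richest bin of D11, 0.434 in naive and 0.181 at D14, whereas in the first bin all 3 were between 0.031 and 0.044.

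Other red cell genes were read in the same barcodes as lists, in non-hemoglobin CPM, counting only genes with at least 20 UMIs in the 2 sums added together. The counts past 2-fold and the medians use sums with 1 UMI added, which lowers ratios to the smaller naive sum where counts are few. Some genes are thus counted as lower though their plain ratio is inside 2-fold. Others with a plain ratio above 2 are not counted as higher. At D11 the lists of red cell enzymes and antioxidants, membrane and skeleton, iron handling and heme synthesis had medians above 0 (heme synthesis turned below 0 with 1 gene at its bound, given with that list), and at D14 all of these but iron handling had medians below 0, while the median of all genes was above it. Per hemoglobin UMI part of this turned: the D14 medians were then 0.22 for enzymes and antioxidants (3 higher, 0 lower) and 0.02 for membrane and skeleton (1 higher, 1 lower), with heme synthesis still below 0 at -0.18 (3 higher, 0 lower) and iron handling at 0.59, all below the 0.99 of all genes. These are descriptions of 3 libraries, not of the conditions, and the shares of all genes past 2-fold given above (12.1% and 10.8% at D11, 34.1% and 4.35% at D14) are what they stand beside.

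Of 20 red cell membrane and skeleton genes, all passed the minimum for D11 over naive, 4 were at least 2-fold higher and 0 lower, with a median of 0.61 (log2). For D14 over naive, 18 passed, 1 was higher and 3 lower, with a median of -0.39. Epb41 (protein 4.1), which ties the skeleton to the membrane, was at 5759, 5895 and 4379 non-hemoglobin CPM in the naive, D11 and D14 libraries. It did not move past 2-fold. The glucose carrier Slc2a1 had the largest D14 ratio of the list, 5.71 (0.956 to 232), which rests on 1 naive UMI beside 36 and 33. Without barcodes holding 2 markers of a leukocyte class its UMIs were 1, 5 and 19, so the D11 value turned from 0.97 to -1.49 (log2), and the list then had 0 genes higher at D14.

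Of 12 heme synthesis genes, 11 passed at D11, with 4 higher and 1 lower and a median of 0.50. At D14, 8 passed, with 1 higher, 1 lower and a median of -0.59. The genes counted as lower had plain ratios inside 2-fold, 0.510 (0.255 to 1.13) at D11 and 0.519 (0.237 to 1.25) at D14. Glrx5, a glutaredoxin for iron-sulfur clusters, was at 1904, 2691 and 1022 non-hemoglobin CPM. Urod, which decarboxylates uroporphyrinogen, was at 39.9, 176 and 26.5, so D11 was 4.42 times naive while D14 was 0.663 times (0.346 to 1.38). Clpx, a mitochondrial chaperone that acts on Alas enzymes, had 0, 21 and 30 UMIs; against a floor of 3 counts in the naive sum its D14 level was at least 1.73-fold higher. It is 1 of the 4 genes counted as higher at D11 and the 1 at D14, and with Clpx at that bound the counts were 3 and 0, with medians of -0.19 and -0.59.

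Of 9 genes of iron uptake and storage, 7 passed in both comparisons, with 2 higher and 1 lower at D11 (median 0.59) and 3 higher and 1 lower at D14 (median 0.18). The gene counted as lower at D14 had a plain ratio just inside 2-fold, 0.509 (0.289 to 0.941). The ferritin chains gave the most UMIs of the list: Ftl1 was at 13346, 20116 and 9249 non-hemoglobin CPM and Fth1 at 4519, 10706 and 3204, so both were highest at D11 and lowest at D14. Tfrc, the transferrin receptor and a marker of the youngest reticulocytes, was at 19.9, 102 and 105 non-hemoglobin CPM, 5.13 times naive at D11 and 5.25 times (2.37 to 14.5) at D14, from 6 naive UMIs. It is not confined to these barcodes: they held 6, 290 and 182 UMIs of it and the other barcodes 1013, 1279 and 5446. Without barcodes holding 2 markers of a leukocyte class Tfrc was at 21.7, 116 and 107 non-hemoglobin CPM. The source of its UMIs was not tested.

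Of 11 red cell enzymes and antioxidants, 9 passed in both comparisons; 4 were higher and 0 lower at D11 (median 0.93), and 1 higher and 1 lower at D14 (median -0.19). Gpx1, a glutathione peroxidase, was at 8477, 10319 and 6999 non-hemoglobin CPM. Prdx2, the main peroxiredoxin of red cells, was at 2346, 6768 and 1189, so D11 was 2.88 times and D14 0.507 times naive. Pgam1, a glycolytic enzyme that many cells express, had 1, 51 and 79 UMIs and a D14 ratio of 13.7 (2.38 to 547). It is 1 of the 4 counted as higher at D11, yet without barcodes holding 2 markers of a leukocyte class its UMIs were 1, 16 and 66 and its D11 value turned from 1.47 to 0.01 (log2).

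Of 10 erythroid regulators, 9 were among the features, 7 passed at D11 with 3 higher and 4 passed at D14 with 2 higher, and none was lower (medians 0.22 and 1.28). Nfe2, an erythroid and megakaryocyte factor, had 0 naive UMIs, and with it at the same floor the D14 median was 0.48. Hemgn, an erythroid nuclear protein, was at 59.8, 60.7 and 45.4 non-hemoglobin CPM. Bcl11a, which represses fetal globin and is also used by B-lineage cells, had 2, 76 and 164 UMIs and a D14 ratio of 14.2 (3.87 to 118); without barcodes holding 2 leukocyte markers the UMIs were 2, 31 and 128. B-lineage markers were also highest at D14 in these barcodes, as given above, and their part in the Bcl11a value was not tested further. Of 12 genes of organelle clearance and ubiquitin, all passed; 1 was at least 2-fold higher at D11 (median 0.25) and none was past 2-fold at D14 (median -0.55). Bnip3l, the receptor by which reticulocytes clear mitochondria, was at 10634, 9521 and 7108 non-hemoglobin CPM, Ubb, a ubiquitin gene, at 6599.6, 7688 and 3822.5, and Isca1, an iron-sulfur assembly gene, at 937, 718 and 503.

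Of 9 other globins, 6 were among the features and 3 passed at D11, where 1 was lower and none higher. The plain ratio of the lower one was just inside 2-fold, 0.510 (0.191 to 1.71), from 5 naive UMIs. The theta-like Hbq1b was at 442, 484 and 327 non-hemoglobin CPM and Hbq1a at 259, 162 and 151. The embryonic Hba-x, Hbb-y and Hbb-bh1 had at most 8 UMIs in any library.

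**Figure D4:**
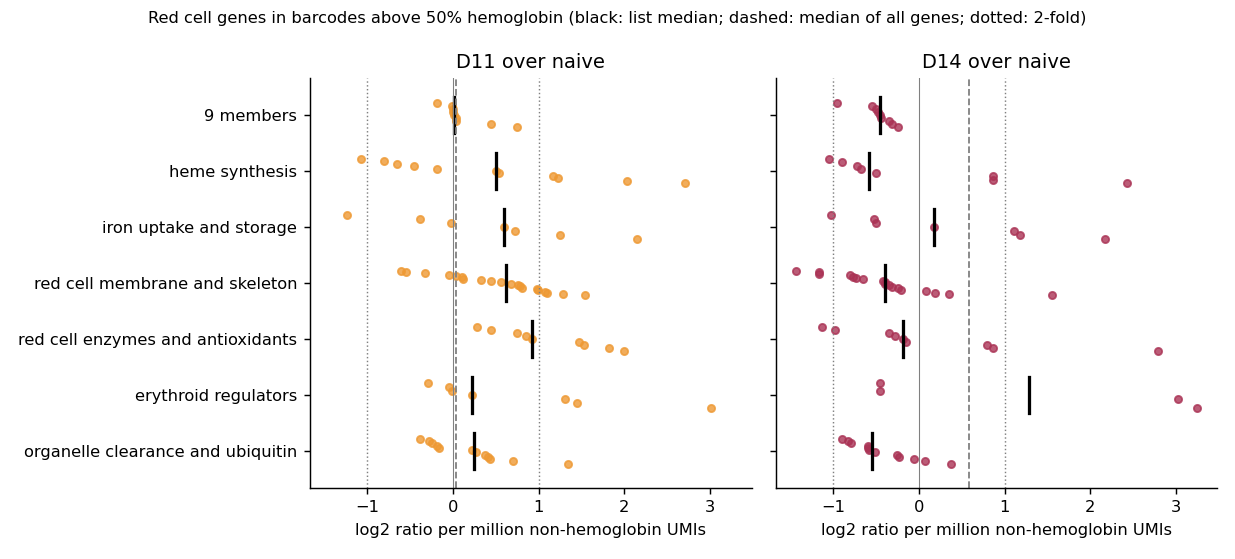
Log2 ratios of non-hemoglobin CPM (x axis) of D11 over naive and D14 over naive in barcodes above 50% hemoglobin; each point is a gene with at least 20 UMIs in the 2 sums added together, black bars are list medians, dashed lines the median of all genes (0.04 and 0.58) and dotted lines 2-fold. At D11 the median of the 9 members is 0.01 and that of the enzymes and antioxidants 0.93, and at D14 the member median is -0.46.

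The genes whose pattern lay nearest to each member over the 6 sums (3 libraries, above and below 50%) were sought among 13723 genes by the root mean square difference of centred log2 levels. Slc25a37 lay nearest to Tmcc2 at 0.13 and Slc25a39 at 0.20. Hbq1b was nearest to Hba-a1, Hba-a2 and Hbb-bt (0.14, 0.13 and 0.13). Fech and Bpgm had no gene so close, the nearest being Cdr2 at 0.36 and Cd59a at 0.35. Among the members, Hba-a1 and Hba-a2 differed by 0.05, Hba-a1 and Hbb-bs by 0.06 and Hba-a1 and Alas2 by 0.22, whereas Fech and Slc25a37 stood 1.22 and 1.42 from Hba-a1. With 6 sums this is a description, and the 6 sums share libraries and are divided by hemoglobin share.

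In the barcodes at or below 50% hemoglobin, only Slc4a1 of the 5 maturation genes had a proportion to hemoglobin that overlapped that of the barcodes above 50% in every library. There the 4 globins summed to 4341, 21702 and 10512 CPM of all UMIs in naive, D11 and D14. Most of these hemoglobin UMIs came from few barcodes. Those at 10 to 50% hemoglobin, 37, 139 and 177 in number, held 102007 of 116260, 429255 of 501546 and 431938 of 524136. Per 1000 hemoglobin UMIs, Slc4a1 was at 0.241 (0.160 to 0.348), 0.251 (0.209 to 0.299) and 0.147 (0.116 to 0.184), beside 0.177, 0.288 and 0.121 above 50%. These values rest on only 28, 126 and 77 UMIs, against 353, 1266 and 1445 for Alas2. The Slc4a1 intervals are therefore wide, and their overlap does not show a closer proportion than that of Alas2. Alas2 was at 3.04 (2.73 to 3.37), 2.52 (2.39 to 2.67) and 2.76 (2.62 to 2.90), beside 2.26, 1.93 and 2.40, so it was higher below 50% in every library with intervals apart. Fech was at 4.83, 1.21 and 1.42, Slc25a37 at 6.72, 2.50 and 4.70, and Bpgm at 3.85, 1.16 and 1.33, in each case above the 0.475 to 0.918 of the red cell barcodes.

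The leukocytes were then read by marker class in barcodes at or below 1% hemoglobin, a limit added after the data were seen. Neutrophil-like, monocyte-like, B-lineage-like and T/NK-like barcodes held 377, 143, 227 and 168 CPM of hemoglobin in naive, 3032, 1191, 1273 and 1626 at D11 and 997, 519, 335 and 498 at D14. Every class was thus lowest in naive and highest at D11. Up to 50% hemoglobin, a UMI of Hbb-bs was found in 52.1 to 58.8% of the barcodes of these classes in naive, 99.4 to 99.7% at D11 and 87.2 to 94.9% at D14. Thinned to 1000 UMIs the shares were 8.97 to 22.1%, 56.7 to 85.6% and 25.7 to 51.0%. The source of these UMIs was not tested. At or below 1% hemoglobin the alpha to beta ratio of the classes was 0.404 to 0.550 in naive, 0.438 to 0.504 at D11 and 0.504 to 0.614 at D14. In all 12 cases this was below the ratio of the red cell barcodes of the same library. That turned on the limit: up to 50% hemoglobin the naive neutrophil-like ratio was 0.738 (0.722 to 0.754), above the 0.711 of the naive red cell barcodes.

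Slc4a1 was at or near 0 in the leukocytes at or below 1% hemoglobin. In naive it had 0 UMIs in all 4 classes, which allows up to 0.259 CPM in the T/NK-like sum and 1.07 CPM in the B-lineage-like sum, taking 3 counts as the limit. At D11 it had 4, 2, 0 and 1 UMIs and at D14 2, 0, 2 and 0 in neutrophil-like, monocyte-like, B-lineage-like and T/NK-like barcodes. Alas2 was low as well, at 0.309 to 1.79 CPM in naive, 1.78 to 7.52 CPM at D11 and 0.675 to 3.60 CPM at D14. Per 1000 hemoglobin UMIs it was above the red cell ratio in the D11 and D14 B-lineage-like barcodes (5.91, 4.14 to 8.18, then 7.47, 5.74 to 9.56) and in naive T/NK-like barcodes (8.71, 5.07 to 13.9). In neutrophil-like barcodes it was at 2.31 (1.67 to 3.13) at D11 and 1.93 (0.999 to 3.38) at D14, intervals that include that ratio.

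Slc25a37, Fech and Bpgm stood further above the red cell ratio. Per 1000 hemoglobin UMIs Slc25a37 was at 16.2 and 50.4 in the D11 and D14 neutrophil-like barcodes, against 0.631 and 0.729 in the red cell barcodes. By level, Slc25a37 was highest in neutrophil-like barcodes, at 46.2 (40.5 to 52.6), 49.2 (43.8 to 55.2) and 50.3 (44.9 to 56.2) CPM, and in B-lineage-like ones, at 52.7 (44.5 to 61.9), 43.5 (37.8 to 49.8) and 43.9 (41.3 to 46.5) CPM. It was at 18.6 to 21.9 CPM in monocyte-like and 10.8 to 12.7 CPM in T/NK-like barcodes. The levels in neutrophil-like barcodes did not differ between libraries beyond counting error.

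Fech differed between the libraries in some classes. In neutrophil-like barcodes it was at 15.3 (12.1 to 19.2), 9.01 (6.77 to 11.8) and 3.86 (2.47 to 5.74) CPM, and in B-lineage-like ones at 19.7 (14.8 to 25.7), 11.9 (9.02 to 15.4) and 5.68 (4.78 to 6.69), so both were highest in naive and lowest at D14. In monocyte-like barcodes it was at 17.0 (12.8 to 22.1), 17.6 (14.1 to 21.7) and 24.0 (20.9 to 27.4), and in T/NK-like ones at 19.5, 18.8 and 22.8, with overlapping intervals. The B-lineage-like class holds engrafted pro-B-like cells beside host B cells at D11 and D14, and its median depth went from 5631 to 5712 to 24468 UMIs, so its makeup and its levels cannot be told apart. Bpgm was highest in T/NK-like barcodes, at 21.3 (18.7 to 24.1), 25.4 (19.1 to 33.1) and 10.8 (4.94 to 20.5) CPM, and at 2.39 to 11.8 CPM in the other 3 classes.

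**Figure D5:**
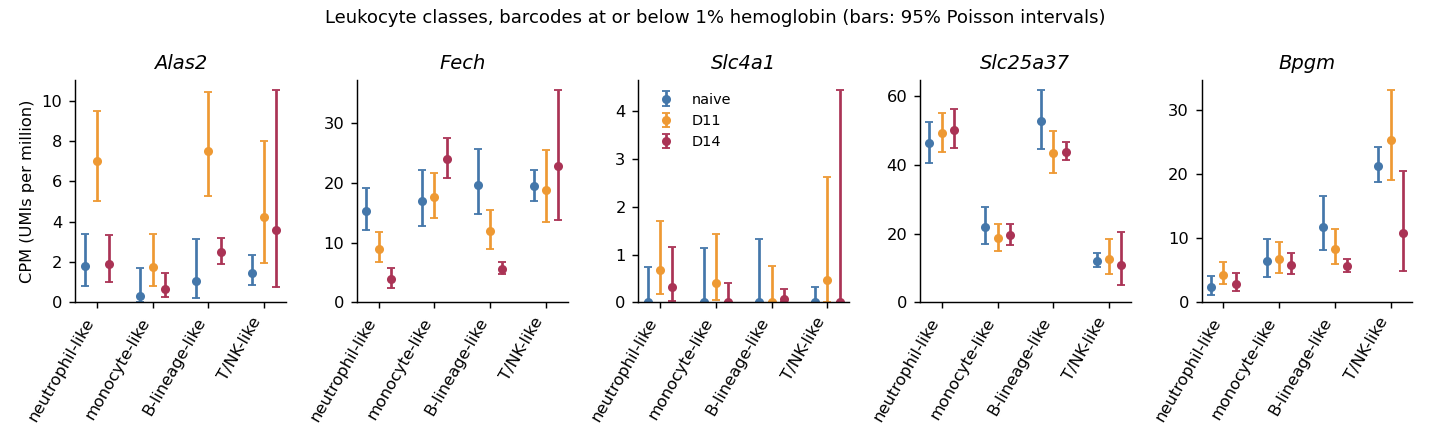
CPM (y axes, from 0) of the 5 maturation genes in 4 leukocyte classes (x axis) of barcodes at or below 1% hemoglobin, by library; bars are 95% Poisson intervals. Slc25a37 lay at 43.5 to 52.7 CPM in neutrophil-like and B-lineage-like barcodes, Bpgm was highest in T/NK-like ones, and Slc4a1 stayed at or below 0.668 CPM.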

How the data were processed

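Droplet scRNA-seq was done on 3 libraries, 1 per condition. The authors deposited raw counts, 1 matrix of UMIs per gene and barcode for each library, made with Cell Ranger; the submitters' processing notes name version 7.1.0 and mm10, the file header names 5.0.1, and the annotation release was not given in the sources used here. Libraries held 30362408, 57640396 and 65861863 UMIs. Every deposited barcode was kept. UMIs were summed per library over barcodes above and at or below 50% hemoglobin, the sum of 4 globin genes. Ratios carry exact conditional binomial 95% intervals, levels Poisson intervals and shares Clopper-Pearson intervals, for counting error only. With 1 library per condition no test was run: a gene is counted past 2-fold, with 1 UMI added and at least 20 UMIs in the 2 sums. A sum of 0 was bounded at 3 counts. Leukocyte classes needed 3 markers and 2 more than any other class; depth was equalised by thinning to 1000 UMIs. Named genes were the members and, per list, the 2 with most UMIs and the largest D14 ratio. Values of some genes that this rule names are not reported here. The members and lists were chosen with earlier results of these data known. Bins and bands by genes, the 1% limit, the scaling without Gm42418 and AY036118 and the gene lists without barcodes of 2 leukocyte markers were added after seeing the data. Gene positions came from GENCODE vM21 and promoters from RefSeq. Scripts were tested on simulated data and used Python 3.11.15, numpy 2.4.6, scipy 1.17.1, pandas 2.3.3, matplotlib 3.10.9 and edgeR 4.0.16 in R 4.3.3 (TMM factors only).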

Additional observations from a re-analysis of the deposited data

Results flagged for a closer look

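For 4 members the D11 and D14 libraries lay on opposite sides of naive with both intervals excluding 0, as log2 ratios per hemoglobin UMI in the barcodes above 50%. Slc4a1 was at 0.701 at D11 and -0.552 at D14. Hbb-bt was at 0.398 and -0.0697, Hbb-bs at -0.0505 and 0.0580, and Alas2 at -0.227 and 0.0912. The globins make up the denominator of this scale, so a higher Hbb-bt share lowers the others. The Hbb-bt and Hbb-bs values are therefore not separate results. Slc25a37 also lay on opposite sides, at -0.0389 and 0.168, but its D11 interval (-0.104 to 0.0262) includes 0. Both ratios share the naive library, each condition is 1 library, and the difference was not tested. Per non-hemoglobin UMI, Alas2 and Hbb-bs were below naive in both libraries, while Slc4a1 and Hbb-bt stayed on opposite sides.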

How the results depend on the processing

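No paired analysis was possible because each condition is 1 library, and for the same reason no replicate could be left out. Values are given in the order naive, D11, D14. Keeping only barcodes of 200 or more genes with no more than 10% mitochondrial UMIs, which removes most red cell barcodes, the share above 50% was 1.65%, 29.5% and 24.0%, the hemoglobin share of UMIs 2.42%, 37.4% and 11.8%, the alpha to beta ratio 0.703, 0.702 and 0.669, and the maturation genes 4.75, 4.64 and 5.12 per 1000 hemoglobin UMIs. At a threshold of 80% the shares were 14.5%, 51.2% and 36.4%, the maturation genes 4.34, 4.20 and 4.41, and the alpha to beta ratio 0.710 in naive and 0.659 at D14. At 20% the D11 and D14 shares were 54.5% and 44.7%. As medians over barcodes, the maturation genes were at 4.28, 4.10 and 4.22 and the alpha to beta ratio was 0.692 at D11 and 0.668 at D14. At 1000 UMIs the alpha to beta ratio was 0.717, 0.690 and 0.667 and the maturation genes 4.76, 4.20 and 4.68. D14 was thus above naive for the maturation genes as reported and below it under the last 2 settings. Without barcodes found in more than 1 library the hemoglobin shares were 11.2%, 55.8% and 22.4%. Without barcodes of 2 leukocyte markers the D11 and D14 shares were 51.0% and 38.3%.

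In barcodes at or below 20% hemoglobin, hemoglobin was at 1035, 4318 and 4430.2 CPM and the maturation genes at 65.3, 83.1 and 75.7 CPM, against 81.1, 166 and 109 CPM at or below 50%. Scaled to non-hemoglobin UMIs, hemoglobin at D11 and D14 was at 22184 and 10624 CPM. Alas2 at D14 turned from 0.09 (log2, per hemoglobin UMI) to -0.32 per non-hemoglobin UMI, -0.69 with TMM factors and -0.42 without Gm42418 and AY036118, and Slc25a37 from 0.17 to -0.24, -0.61 and -0.35. Of all genes at D11, 719 were at least 2-fold higher and 641 lower: with at least 100 UMIs 269 and 55, without barcodes of 2 leukocyte markers 393 and 1035 (median -0.38 against 0.04), and with no minimum 6524 lower. At D14, 2148 were higher and 274 lower: with at least 100 UMIs 602 and 47, and lower were 117 per hemoglobin UMI, 638 with TMM factors and 3749 with no minimum. The counts of lower genes with no minimum are raised by the 1 UMI added, which weighs more in the smaller naive sum. A gene with 0 naive and 2 D11 UMIs was thus at -1.65 (log2). A gene with 0 naive UMIs and 1 D14 UMI was at -1.53. Those counts are not read as genes that are lower. The causes of the other changes were not tested, apart from the number of genes or barcodes each setting leaves.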
